A study of Mus musculus with 15 samples.

Results

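The 10 genes described here make or remove hydrogen peroxide: the superoxide dismutases Sod1, Sod2 and Sod3, the removing enzymes Cat, Gpx1, Gpx3, Prdx3 and Prdx5, and the NADPH oxidase subunits Nox4 and Cybb. They were chosen by name, globin genes were not included, and each symbol was mapped to 1 Ensembl gene among the 55450 genes of the count table. All 10 passed the filter on low counts that left 16920 genes to test. The muscle was the gastrocnemius of female C57BL/6JN mice older than 17 months. Low Control (n = 4) and High Control (n = 3) mice stayed sedentary in their cages, and Low Run (n = 4) and High Run (n = 4) mice completed 2 bouts of downhill running at 13 m/min on a 22 degree decline and were sampled 24 h after the last bout. Low mice, labelled robust, carried at most 1 positive frailty marker, and High mice, labelled frail, carried at least 2. The thresholds of the markers were set within this cohort, so High and Low are ranks among these aged females, and no young mice are in the comparison.

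Superoxide that leaks from the respiratory chain, or that oxidases make on purpose, is turned into hydrogen peroxide by the superoxide dismutases, and catalase, glutathione peroxidases and peroxiredoxins turn that peroxide into water. NADPH oxidases pass electrons from NADPH to oxygen. In muscle NOX4 is made in fibres and vessel walls, whereas the oxidase built around CYBB (NOX2) is abundant in macrophages and neutrophils and is also present in fibres.

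Total counts per mouse ranged from 19395125 to 30699216, with a median of 25926420. Acta1, skeletal actin and a defining transcript of muscle, was at a mean of 31941 CPM (counts per 1000000 counts of the library, on library sizes scaled by the trimmed mean of M-values). Some mice stood apart: Low Control D9 was the highest or the lowest of the 15 mice for 43.5% of the genes tested, High Run D62 for 22.5% and High Run D53 for 20.8%, against at most 15.3% for any other mouse. For the 10 genes D9 was the highest mouse for 3 (Sod1, Cat and Nox4) and the lowest for 2 (Gpx1 and Prdx5), D62 was the lowest for 3 (Sod2, Sod3 and Prdx3), and D53 was the highest for 4 (Sod3, Gpx1, Gpx3 and Prdx3). Several differences are therefore also given without 1 of these mice.

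None of the 10 genes was called between any pair of groups at a false discovery rate of 0.1 in the edgeR quasi-likelihood test. Over all 16920 genes 0.0% were called in each of the 5 comparisons, so the absence of calls is shared with the whole table. At an unadjusted p under 0.05, 1 of the 10 (Nox4, lower) passed in Low Run against Low Control, where 13.4% of all genes passed. In High Run against High Control it was 1 of 10 (Cybb, higher) against 5.18% of all genes. The Frailty x Run interaction, the test of whether the run effect differed between High and Low mice, gave 1 of 10 (Nox4) against 7.93%, and High Control against Low Control gave 1 of 10 (Cat, lower) against 5.86%. High Run against Low Run gave 0 of 10 against 2.51%. DESeq2 and limma voom called none of the 10 at the same rate either. The median log2 fold change of the 10 was 0.08 after running in Low mice and 0.13 in High mice, beside 0.02 and 0.05 over all genes tested. The log2 fold changes below are thus described by their size, their 95% interval and whether the mice of the groups overlapped.

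**Figure D1:**
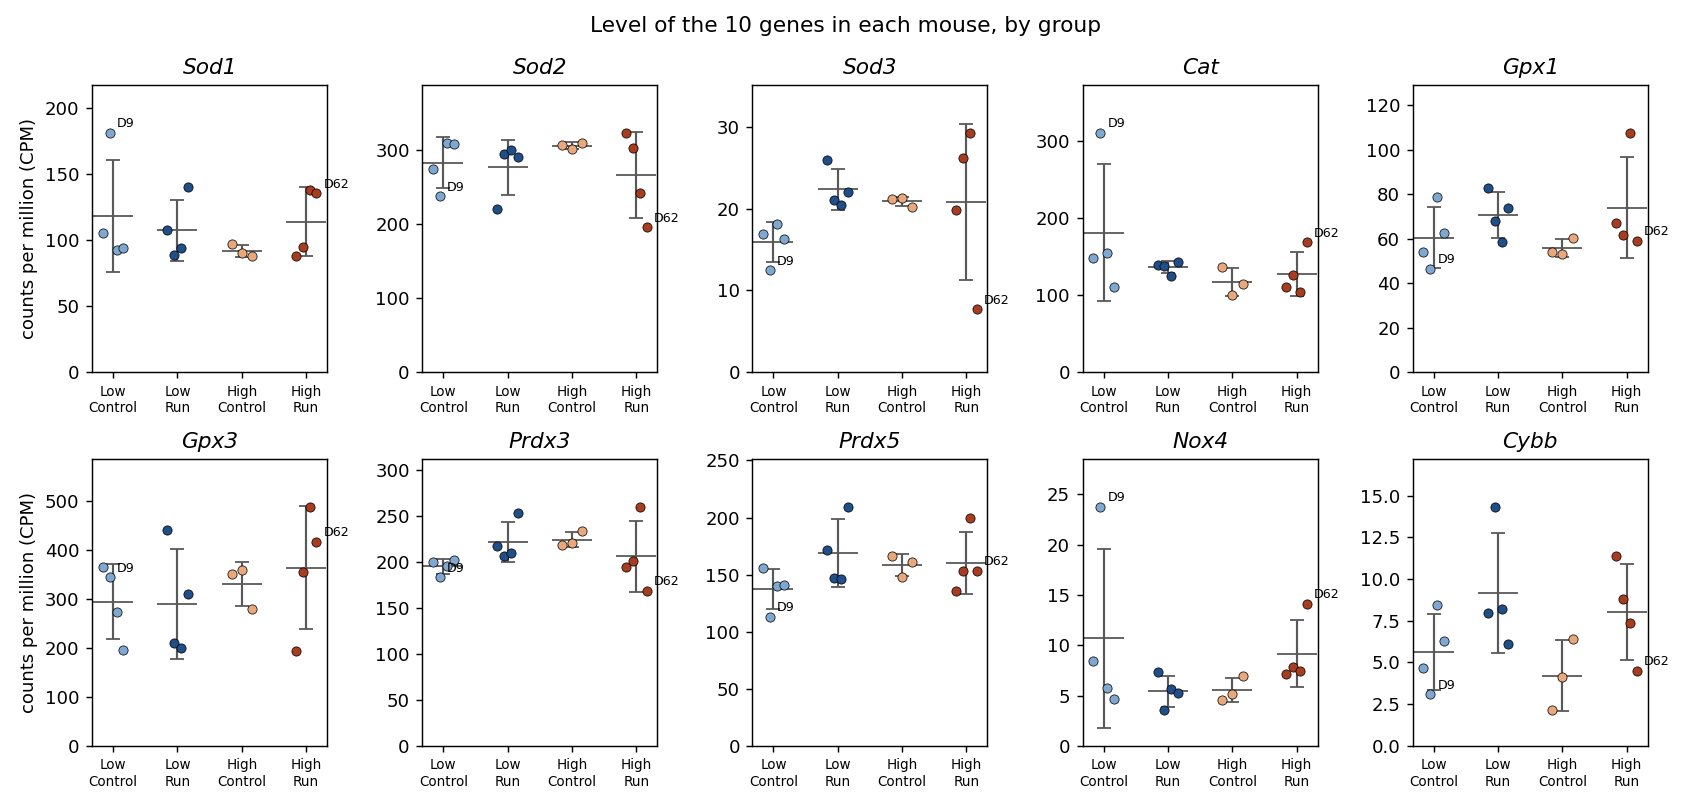
CPM (vertical axes, each from 0) of the 10 genes in each mouse (points) by group (horizontal axes), with the group mean (horizontal bar) and SD (whiskers), n = 4, 4, 3 and 4. Sod1, Cat and Nox4 have their highest point in Low Control D9 (181, 311 and 23.8 CPM), and Sod3 has its lowest in High Run D62 (7.72 CPM).

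The 10 genes spanned a wide range of abundance. Per kilobase of exon the order of the mean levels was Gpx3 (176 CPM per kb), Prdx3 (143), Prdx5 (73.0), Cat (54.3), Gpx1 (45.7), Sod2 (28.1), Sod1 (27.4), Sod3 (5.34), Cybb (1.19) and Nox4 (0.926). Sod2 and Sod1 are neighbours whose levels were close, as were Cybb and Nox4. The order depends on the gene model: per kilobase of the principal transcript Sod1 came second (169.6), because its annotated exons add up to 3970 bases and its principal transcript to 641. The 2 oxidase genes were measured with 55 to 575 reads per mouse, against at least 1123 for each removing enzyme, so counting error weighs more on them. They also varied most between mice: the highest mouse was 6.74 times the lowest for Nox4 and 6.75 times for Cybb, against 1.54 times for Prdx3, the steadiest.

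**Figure D2:**
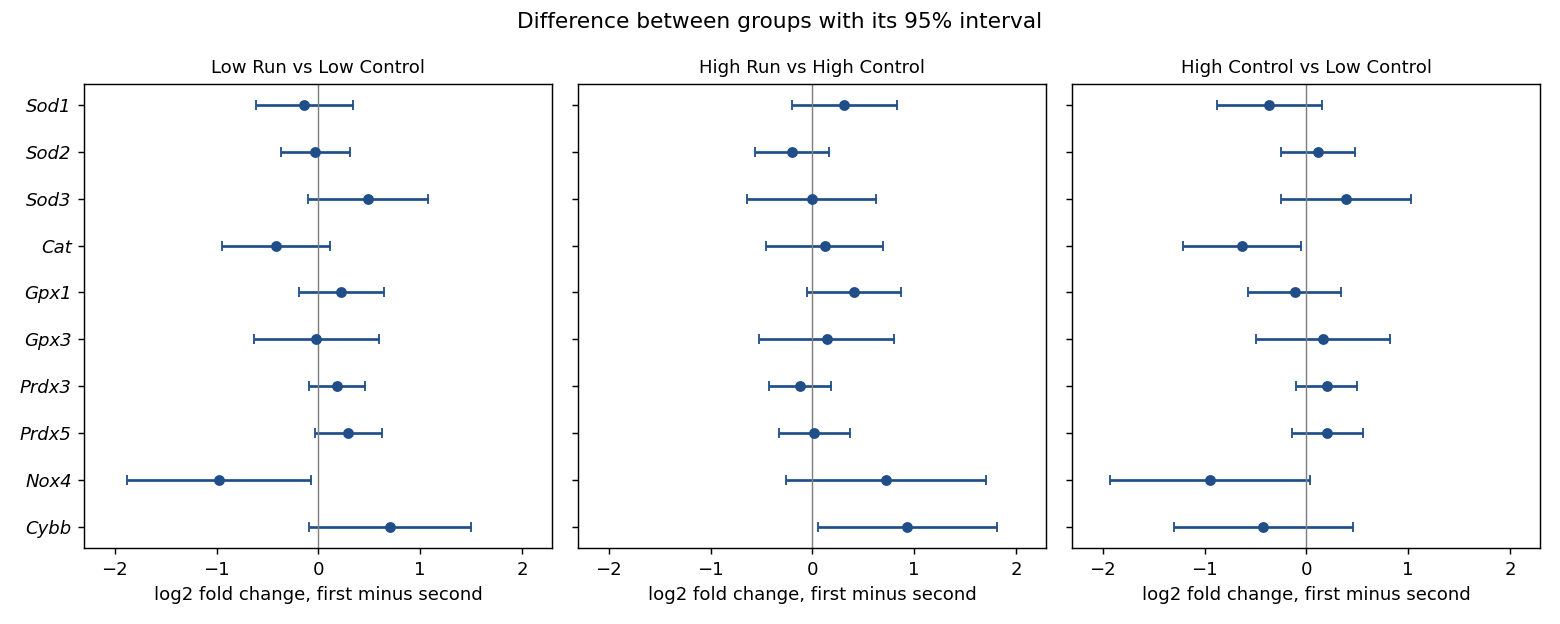
Log2 fold change (horizontal axes, first group minus second) of the 10 genes with its 95% interval from the edgeR fit of 15 mice, in 3 comparisons. The intervals of Nox4 in Low mice (-1.88 to -0.08), of Cybb in High mice (0.05 to 1.82) and of Cat between the control groups (-1.21 to -0.05) leave out 0, none of them at an adjusted p under 0.1.

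Cybb encodes gp91phox, the catalytic subunit of the phagocyte oxidase (gene on X:9435252-9487771, minus strand, GRCm38). Its mean was higher in the run mice than in the sedentary mice at both levels of frailty. In Low Control it was at 4.69 (D8), 3.10 (D9), 8.45 (D11) and 6.29 CPM (D98), and Low Run mice had 7.99 (D57), 14.3 (D61), 8.18 (D66) and 6.12 CPM (D68). In High Control it was at 2.12 (D23), 4.10 (D25) and 6.42 CPM (D67), and High Run mice had 11.4 (D49), 8.80 (D52), 7.39 (D53) and 4.50 CPM (D62). The groups overlapped in both comparisons: D11 lay above 3 of the 4 Low Run mice, and D62 lay below the highest High Control mouse. Cybb was 1.63-fold higher in Low Run than in Low Control (log2 0.70, SE 0.37, adjusted p = 0.397, exact permutation p = 0.20) and 1.91-fold higher in High Run than in High Control (log2 0.93, SE 0.42, adjusted p = 0.956, exact permutation p = 0.114). The difference between these run effects was 0.23 on the log2 scale (95% interval -0.95 to 1.40), so an equal effect and one that differed by a whole log2 unit were both within the interval. Leaving out 1 mouse at a time, the log2 difference ran from 0.39 (without D61) to 0.96 (without D11) in Low mice and from 0.61 (without D23) to 1.36 (without D67) in High mice.

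Other subunits of the same oxidase were set beside Cybb, a grouping of 5 genes chosen after their values were seen: Cyba, the p22phox partner of the catalytic subunit, the cytosolic organisers Ncf1 and Ncf4, and the GTPase Rac2. All 5 had a positive log2 fold change in both run comparisons, beside 51.9% of all genes tested in Low mice and 57.2% in High mice. The medians were 0.91 and 0.88, beside the all-gene medians given above, and without D9 and D62 they were 0.76 and 1.13 with all 5 still above 0. Cyba was at 7.77 (D8), 4.47 (D9), 6.90 (D11) and 6.33 CPM (D98) in Low Control mice and at 13.0 (D57), 14.9 (D61), 7.93 (D66) and 13.4 CPM (D68) in Low Run mice. These values did not overlap, although D66 was only just above D8, and the log2 difference was 0.95 (SE 0.24, adjusted p = 0.358). Ncf1 did not overlap either, between 3.06 and 3.56 CPM in Low Control and between 4.22 and 8.32 CPM in Low Run (log2 0.81, SE 0.24, adjusted p = 0.358). Beside these, 6.93% of all genes tested had no overlap between Low Run and Low Control, 3.35% with the run mice higher. In High mice Cyba differed by 0.66 (SE 0.26) and Ncf1 by 0.60 (SE 0.26), both at an adjusted p of 0.956, and D62 overlapped the controls for both. Rac2 was at 3.28 to 11.2 CPM in Low Run against 1.66 to 3.99 in Low Control (log2 1.42, SE 0.52, adjusted p = 0.358), the large values being those of D61 and D68.

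**Figure D3:**
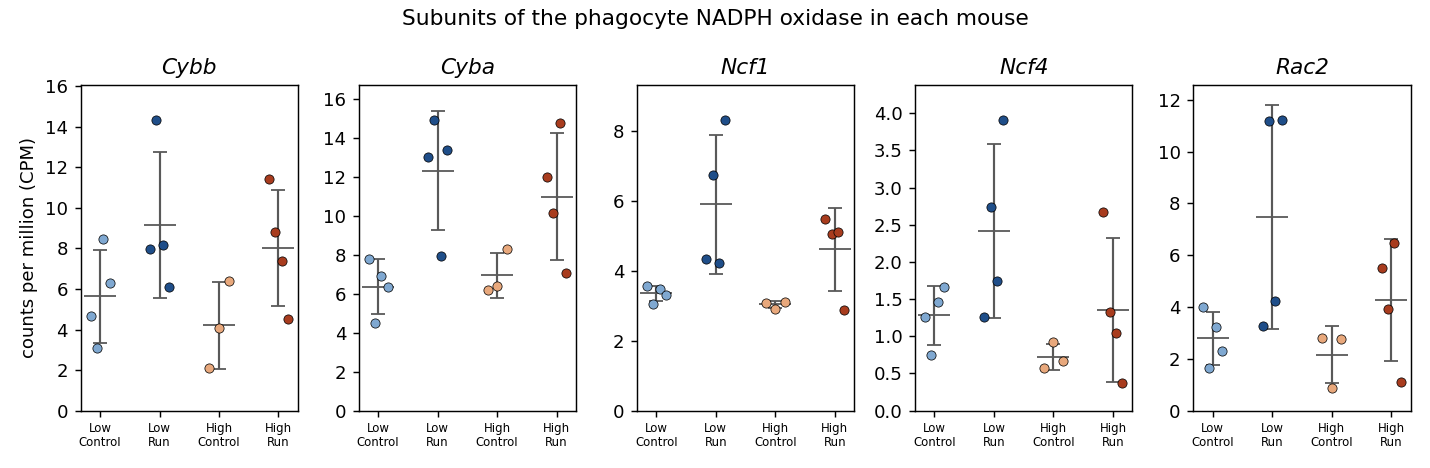
CPM (vertical axes, each from 0) of 5 subunits of the phagocyte oxidase in each mouse (points) by group (horizontal axes), with the mean (horizontal bar) and SD (whiskers). The mean is higher in the run group than in its control group in all 5 panels at both levels of frailty, and no difference passed the adjusted threshold.

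Summed over the 5 subunits, the level in sedentary mice was 19.4 ± 4.52 CPM (SD, n = 4) for Low and 17.1 ± 3.62 (n = 3) for High, and in run mice it was 37.3 ± 11.1 (n = 4) for Low and 29.2 ± 9.48 (n = 4) for High. Low Run mice (26.3 to 49.9 CPM) lay above all Low Control mice (13.04 to 23.5), whereas High Run mice (15.9 to 37.04) overlapped High Control mice (14.8 to 21.3) through D62. Cell markers moved with the subunits. The summed level of 14 macrophage genes was 210.3 ± 53.4 CPM (150.3 to 277) in sedentary and 276 ± 43.8 (229.6 to 331) in run Low mice, and 159.7 ± 33.7 (124 to 191) and 279 ± 84.1 (179.9 to 371) in High mice in the same order. Of the 14 genes, 13 had a positive log2 fold change in Low mice, 3 of them at an unadjusted p under 0.05 beside 1 that was lower. Without D9, 10 had a positive value, 0 of them at an unadjusted p under 0.05, and 1 was lower at that p. In High mice it was 14 of 14, 7 of them at an unadjusted p under 0.05, and none of the defining markers was at 0 in any mouse. Of all genes tested, 51.9% were above 0 in Low mice and 57.2% in High mice. At an unadjusted p under 0.05 in either direction it was 13.4% and 5.18%. The 5 pan-leukocyte genes gave 33.7 ± 10.3 and 64.0 ± 23.6 CPM in sedentary and run Low mice, and 26.4 ± 3.11 and 44.7 ± 18.1 in sedentary and run High mice. Neutrophil genes were uneven, with a summed level of 480 CPM in Low Run D68 and 3.06 to 75.03 CPM in the other 14 mice. Over the 15 mice Cybb followed the macrophage sum with r = 0.89 and rho = 0.83 (permutation p = 2.0e-05 and 2.2e-04, Benjamini-Hochberg adjusted p = 0.00337 and 0.0127 over the 225 relations computed). With D23 and D49, the 2 mice farthest from the median macrophage sum, left out, r was 0.81, and with the group means removed it was 0.80. In whole muscle more cells of a type and more RNA per cell cannot be told apart, and the part of the leukocyte level in the Cybb difference was not tested.

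**Figure D4:**
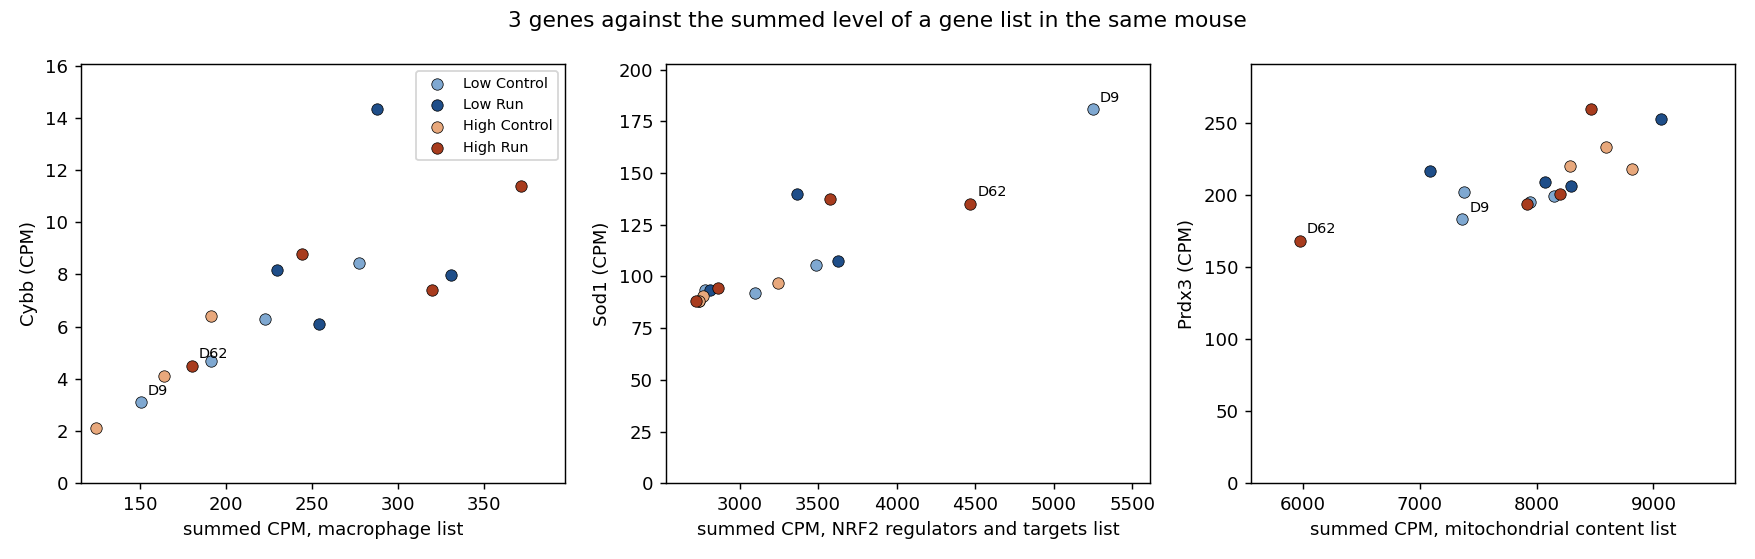
Level of 3 genes in CPM (vertical axes, from 0) against the summed CPM of a gene list in the same mouse (horizontal axes, not from 0), 15 mice coloured by group. Left, Cybb against 14 macrophage genes (r = 0.89); middle, Sod1 against 18 NRF2 genes (r = 0.90), where D9 has the largest sum; right, Prdx3 against 8 mitochondrial genes (r = 0.74), where D62 has the smallest.

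Nox4, whose product makes hydrogen peroxide without the cytosolic organisers, had opposite differences after running in Low and High mice (gene on 7:87246096-87398710, plus strand, GRCm38). Low Control mice had 8.46 (D8), 23.8 (D9), 5.79 (D11) and 4.67 CPM (D98), and Low Run mice had 7.31 (D57), 3.53 (D61), 5.67 (D66) and 5.21 CPM (D68). High Control mice had 4.60 (D23), 5.13 (D25) and 6.94 CPM (D67), and High Run mice had 7.16 (D49), 7.86 (D52), 7.42 (D53) and 14.1 CPM (D62). Every High Run mouse was above every High Control mouse, by a narrow gap between D67 and D49, whereas the Low groups overlapped and differed mainly through D9. Nox4 was lower in Low Run than in Low Control by a log2 difference of -0.98 (SE 0.42, adjusted p = 0.359, exact permutation p = 0.257) and 1.65-fold higher in High Run than in High Control (log2 0.72, SE 0.46, adjusted p = 0.956, exact permutation p = 0.0571). In the latter comparison 7.07% of all genes tested did not overlap, 3.47% with the run mice higher. The interaction was 1.70 on the log2 scale (95% interval 0.37 to 3.03, adjusted p = 0.600, exact permutation p = 0.0298 over 2450 arrangements). The permutation shuffled the run labels within each frailty group, so its p is against no run effect in either group. It is not a test of equal run effects. Without D9 the difference in Low mice was -0.23 and the interaction 0.95, without D62 the difference in High mice was 0.42, and without both mice the interaction was 0.65. Each of these 3 values thus kept its sign and became smaller. Between the run groups Nox4 differed by 0.75 (SE 0.42, adjusted p = 0.999, exact permutation p = 0.0571), with D57 of Low Run within the range of High Run. Between the control groups it differed by -0.95 (SE 0.46, adjusted p = 0.704), and by -0.19 without D9.

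Cat encodes catalase, the peroxisomal enzyme that splits hydrogen peroxide into water and oxygen (2:103453849-103485160, minus strand). It was lower in High Control than in Low Control mice on average, and 1 mouse carried most of that difference. The Low Control mice had 148 (D8), 311 (D9), 155 (D11) and 111 CPM (D98), against 136 (D23), 100.4 (D25) and 114 CPM (D67) in High Control. Low Run mice had 139 (D57), 137 (D61), 125 (D66) and 143 CPM (D68), and High Run mice had 110.1 (D49), 126 (D52), 104 (D53) and 168 CPM (D62). All groups overlapped. The log2 difference between the control groups was -0.63 (SE 0.27, adjusted p = 0.704, exact permutation p = 0.171) and -0.24 without D9. Between Low Run and Low Control it was -0.41 (SE 0.25, adjusted p = 0.439) and -0.03 without D9.

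Sod1 encodes the copper and zinc dismutase of the cytosol (16:90220754-90226329, plus strand, overlapping Scaf4 on the other strand). In Low Control it was at 105 (D8), 181 (D9), 91.9 (D11) and 93.5 CPM (D98), and Low Run mice had 108 (D57), 88.2 (D61), 93.6 (D66) and 139.7 CPM (D68). High Control mice were closely spaced at 96.7 (D23), 90.3 (D25) and 88.0 CPM (D67), and High Run mice had 87.9 (D49), 94.6 (D52), 138 (D53) and 135 CPM (D62). High values above 130 CPM thus came from 4 mice of 3 groups, and the groups overlapped throughout. The log2 difference after running was -0.14 (SE 0.22, adjusted p = 0.784) in Low mice, 0.14 without D9, and 0.31 (SE 0.24, adjusted p = 0.958) in High mice, 0.21 without D53 or without D62. Between the control groups it was -0.36 (SE 0.24, adjusted p = 0.704), and -0.09 without D9.

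With all 15 mice Sod1, Cat and Nox4 varied together, and the variation went with the transcripts of NRF2, the factor that switches on many antioxidant genes. For Cat and Nox4, and for the relations between these genes, this rested on D9 and D62. The list held 18 NRF2 regulators and targets, none of them among the 10 genes, and its sum was dominated by the ferritin chain Fth1 and the autophagy receptor Sqstm1. The sum was 5248 CPM in D9 and 4468 in D62, the 2 highest mice, against 2720 in High Run D49, the lowest. Over the 15 mice Sod1 followed it with r = 0.90 and rho = 0.93 (permutation p = 3.0e-05 and 1e-05, the latter the smallest the permutations can give, adjusted p = 0.00337 and 0.00225). Without D9 and D62, which are also the 2 mice farthest from the median sum, r was still 0.78. Nox4 gave r = 0.83 and rho = 0.60 (permutation p = 5.8e-04 and 0.0190, adjusted p = 0.0126 and 0.137), and Cat gave r = 0.81 and rho = 0.65 (permutation p = 6.7e-04 and 0.0105, adjusted p = 0.0126 and 0.102). Without D9 and D62 these fell to r = 0.37 and r = 0.42, so the relations of Nox4 and Cat with the list rested on those 2 mice. Gpx3 gave r = 0.60 and rho = 0.69 (permutation p = 0.0152 and 0.00533, adjusted p = 0.0949 and 0.0666), and r = 0.76 without them. The relations between the genes rested on the same mice. Between Cat and Nox4 r was 0.73 with all mice and -0.05 without D9 and D62. In the same order it was 0.69 and 0.11 between Sod1 and Cat, and 0.73 and 0.23 between Sod1 and Nox4. Without D9 and D62 the NRF2 list was not the closest to Sod1. Its r was then 0.91 with the list of oxidase partners and homologues and 0.88 with that of other peroxide-removing enzymes. With all mice these were 0.79 and 0.49. In group terms, 13 of the 18 NRF2 genes were lower in Low Run than in Low Control (median log2 -0.46, 4 at an unadjusted p under 0.05), and 15 of 18 were higher in High Run than in High Control (median 0.13, 2 at an unadjusted p under 0.05), none at an adjusted p under 0.1. Of all genes tested, 51.9% were above 0 in Low mice and 57.2% in High mice. At an unadjusted p under 0.05 in either direction it was 13.4% and 5.18%. The counts of 13 and 15 NRF2 genes rested on the same 2 mice: without D9, 10 of the 18 were lower in Low Run (median log2 -0.07, none at an unadjusted p under 0.05), and without D62, 11 of the 18 were lower in High Run (median -0.09). With all mice, those with the smallest p were Bach1, the repressor of NRF2 targets (log2 -1.26, SE 0.45, adjusted p = 0.358), and Txnrd1 (log2 -0.67, SE 0.24, adjusted p = 0.358) in Low mice, and Ftl1 (log2 0.47, SE 0.16, adjusted p = 0.956) and Hmox1 (log2 0.94, SE 0.36, adjusted p = 0.956) in High mice. Without D9 Bach1 was at -0.42 and Txnrd1 at -0.32 in Low mice, and without D62 Ftl1 was at 0.37 and Hmox1 at 0.59 in High mice. Both ferritin genes have many near-identical pseudogenes, so their counts of unique reads are uncertain.

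**Figure D5:**
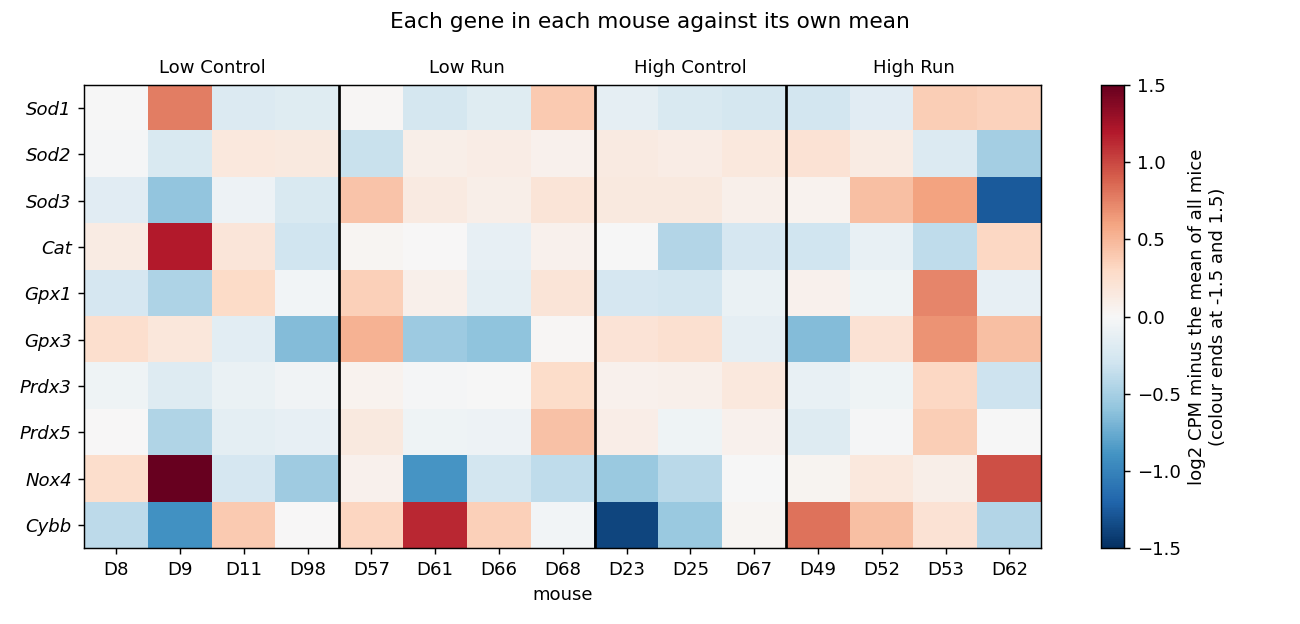
Log2 CPM of each gene (rows) in each mouse (columns, grouped) minus the mean of all 15 mice, red above and blue below, with the colour ending at -1.5 and 1.5. Low Control D9 shows high Sod1, Cat and Nox4 beside low Sod3, Gpx1, Prdx5 and Cybb, and High Run D62 shows high Nox4 beside low Sod2 and Sod3.

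The sequence before the RefSeq transcription start is shown for Sod1, Cat and Nox4, the genes that were highest in D9, the mouse with the largest NRF2 sum. NRF2 target genes carry the antioxidant response element, searched here as TGACNNNGC on both strands. RefSeq promoters on GRCm38.p6 were at hand for 9 of the 10 genes, Sod3 being the one without. Within the 250 bases before the start, Sod1 alone of the 9 held a match, and 10.2% of the 32851 promoters in the table held one. The match lay on the minus strand 56 bases before the start, followed by a TATAAA box 37 bases before it, which 12.4% of promoters held. Capitals mark these matches, and in Cat a match to GAGGAA, the core bound by the myeloid factor PU.1, which 23.3% of promoters held, 3 of the 9 among them and Cybb not. The windows are 16:90220512-90220761 (plus strand) for Sod1, 2:103485154-103485403 (minus strand) for Cat and 7:87246399-87246648 (plus strand) for Nox4. The Nox4 window, and that searched for Cybb (X:9469325-9469574), lie inside the genes as GENCODE places them, in no annotated exon. The windows searched for Sod2 (17:13007589-13007838) and Gpx3 (11:54902604-54902853), both holding GAGGAA, also lie inside their genes. Annotated exons cover 22 and 82 of their 250 bases. All of these precede only the start of a RefSeq transcript. Exons of any annotated gene also cover 177 bases of the Gpx1 window and all 250 of the Prdx5 window. All the windows are descriptions of these letters and not of binding.
Sod1: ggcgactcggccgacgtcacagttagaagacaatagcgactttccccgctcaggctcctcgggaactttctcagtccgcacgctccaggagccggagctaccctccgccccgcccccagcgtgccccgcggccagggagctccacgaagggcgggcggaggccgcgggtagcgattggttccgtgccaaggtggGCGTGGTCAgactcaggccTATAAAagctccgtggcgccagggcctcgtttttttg
Cat: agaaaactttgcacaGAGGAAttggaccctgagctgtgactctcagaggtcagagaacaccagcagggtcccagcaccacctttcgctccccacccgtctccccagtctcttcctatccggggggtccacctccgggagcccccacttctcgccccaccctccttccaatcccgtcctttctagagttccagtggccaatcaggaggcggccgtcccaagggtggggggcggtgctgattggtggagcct
Nox4: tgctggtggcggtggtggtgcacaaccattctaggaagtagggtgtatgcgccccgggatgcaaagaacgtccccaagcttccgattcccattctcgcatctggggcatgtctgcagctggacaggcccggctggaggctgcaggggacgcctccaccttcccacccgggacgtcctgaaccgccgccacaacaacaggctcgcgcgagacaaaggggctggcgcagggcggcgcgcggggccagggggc

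Sod2, the manganese dismutase of the mitochondrial matrix (17:13006846-13040063, plus strand), varied in the other direction. Low Control mice had 275 (D8), 237 (D9), 309.9 (D11) and 308 CPM (D98), and Low Run mice had 221 (D57), 295 (D61), 300.1 (D66) and 290.1 CPM (D68). The High Control mice had 306 (D23), 302 (D25) and 310.0 CPM (D67), and High Run mice had 323 (D49), 303 (D52), 241 (D53) and 196 CPM (D62). Most mice were thus near 300 CPM and 4 mice of 3 groups were below 250. The groups overlapped, with a log2 difference of -0.03 (SE 0.16, adjusted p = 0.942) after running in Low mice, -0.12 without D9, and -0.20 (SE 0.17, adjusted p = 0.958) in High mice, -0.09 without D62. Against the NRF2 sum Sod2 gave r = -0.82 and rho = -0.83 (permutation p = 6.4e-04 and 3.4e-04, adjusted p = 0.0126 and 0.0127), and r = -0.78 without D9 and D62. Its own relation with Sod1 was r = -0.70, and -0.61 without those mice. All values of 1 mouse come from 1 library and share its composition.

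Prdx3 and Sod3 were the 2 of the 10 genes for which Low Control mice overlapped neither Low Run nor High Control mice, Low Control being the lower each time. Of all genes tested, 3.35% were higher without overlap in Low Run and 5.13% in High Control, and both comparisons share the Low Control mice. Prdx3 is the peroxiredoxin of the mitochondrial matrix (19:60864051-60874556, minus strand). The Low Control mice had 199.8 (D8), 183 (D9), 195 (D11) and 202 CPM (D98), and Low Run mice had 217 (D57), 206 (D61), 209 (D66) and 253 CPM (D68). In High Control it was at 219 (D23), 220.5 (D25) and 233 CPM (D67). Every Low Run and every High Control mouse was above every Low Control mouse, by a log2 difference of 0.18 (SE 0.13, adjusted p = 0.502) and 0.20 (SE 0.14, adjusted p = 0.708), each with an exact permutation p of 0.0286, the smallest these group sizes allow. High Run mice had 194 (D49), 201 (D52), 260.0 (D53) and 168 CPM (D62) and overlapped all other groups. The interaction was -0.31 (SE 0.19, adjusted p = 0.616, exact permutation p = 0.0784 against no run effect in either group), and -0.19 without D9 and D62.

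Sod3, the dismutase secreted into the matrix around vessels and fibres (5:52363791-52371418, plus strand), was at 16.9 (D8), 12.5 (D9), 18.2 (D11) and 16.3 CPM (D98) in Low Control mice. Low Run mice had 26.02 (D57), 21.1 (D61), 20.5 (D66) and 22.1 CPM (D68), and High Control mice had 21.2 (D23), 21.3 (D25) and 20.3 CPM (D67). Both groups lay wholly above Low Control. The difference was 1.40-fold in Low Run (log2 0.49, SE 0.28, adjusted p = 0.420, exact permutation p = 0.0286) and 1.31-fold in High Control (log2 0.39, SE 0.30, adjusted p = 0.718, exact permutation p = 0.0571). High Run mice had 19.9 (D49), 26.3 (D52), 29.3 (D53) and 7.72 CPM (D62), the widest spread of the 4 groups. Their log2 difference from High Control was -0.01 (SE 0.30, adjusted p = 1.00), 0.26 without D62 and -0.22 without D53.

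Prdx3 and Sod3 moved with several marker lists, and with each other (r = 0.77, and 0.56 without D9 and D62). Prdx3 followed the summed level of 8 nuclear genes of mitochondrial metabolism, such as Cs and Atp5b, with r = 0.74 and rho = 0.76 (permutation p = 0.00141 and 0.00139, adjusted p = 0.0198 and 0.0347), with r = 0.77 without D57 and D62, the farthest from the median, and r = 0.53 without D9 and D62. That sum was 7710.2 ± 399 CPM in sedentary and 8132 ± 814 in run Low mice, and 8566 ± 264 and 7640.2 ± 1134 in the High mice. Sod3 followed 8 fibroblast genes, of which Dcn was the most abundant, with r = 0.82 and rho = 0.73 (permutation p = 8.0e-05 and 0.00265, adjusted p = 0.00600 and 0.0497), with r = 0.72 without D52 and D62. The fibroblast sum was 904 ± 124 CPM in sedentary and 1204 ± 349 in run Low mice, and 1179 ± 158 and 1257 ± 496 in the High mice. Prdx3 went more closely with 7 smooth muscle and pericyte genes (r = 0.79, and 0.74 without D9 and D62) than with the mitochondrial genes. Sod3 also went with the mitochondrial sum (r = 0.73, and 0.14 without D9 and D62). The part of any of these lists in the differences of Prdx3 and Sod3 was not tested.

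Prdx5, a peroxiredoxin of mitochondria, peroxisomes and cytosol (19:6906697-6910106, minus strand, overlapping Trmt112 on the other strand), varied with Prdx3 between mice (r = 0.78, rho = 0.70, permutation p = 8.7e-04 and 0.00432, adjusted p = 0.0148 and 0.0666, and r = 0.68 without D9 and D68). In Low Control it was at 155 (D8), 113 (D9), 139.9 (D11) and 141 CPM (D98), and Low Run mice had 172 (D57), 147 (D61), 146 (D66) and 209.6 CPM (D68). The overlap was due to D8, and the log2 difference of 0.30 (SE 0.15, adjusted p = 0.391, exact permutation p = 0.143) was 0.16 without D68. High Control mice had 166 (D23), 148 (D25) and 161 CPM (D67), and High Run mice had 135 (D49), 153 (D52), 199 (D53) and 154 CPM (D62), a log2 difference of 0.02 (SE 0.17, adjusted p = 0.995), and -0.10 without D53.

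Gpx1, the selenium-dependent peroxidase of cytosol and mitochondria (9:108338903-108340343, plus strand), was higher on average in run mice at both levels of frailty. Low Control mice had 54.2 (D8), 46.5 (D9), 78.5 (D11) and 62.3 CPM (D98), and Low Run mice had 82.6 (D57), 67.8 (D61), 58.3 (D66) and 73.9 CPM (D68). The High Control mice had 53.9 (D23), 53.1 (D25) and 60.2 CPM (D67), and High Run mice had 67.2 (D49), 61.7 (D52), 108 (D53) and 59.1 CPM (D62). The groups overlapped in both comparisons, and D53 was far above the rest. The log2 difference was 0.23 (SE 0.20, adjusted p = 0.582) in Low mice, 0.11 without D9, and 0.41 (SE 0.22, adjusted p = 0.956) in High mice, 0.17 without D53. Like Cybb, Gpx1 followed the macrophage sum (r = 0.78, rho = 0.88, permutation p = 4.1e-04 and 6.0e-05, adjusted p = 0.0126 and 0.00675), with r = 0.89 without D23 and D49. Erythroid markers were also highest in D53: their summed level over 5 genes was 267 CPM there and 15.8 to 177.9 CPM in the other 14 mice. The 3 erythroid genes tested were all higher in High Run than in High Control at an unadjusted p under 0.05 (median log2 3.05, each at an adjusted p of 0.956). Beside them, 5.18% of all genes tested passed that p in either direction. All 3 erythroid genes were below 0 in Low Run against Low Control (median -1.26, 0 of them at an unadjusted p under 0.05), where 51.9% of all genes tested were above 0. Gpx1 gave r = 0.54 and rho = 0.30 with the erythroid sum (permutation p = 0.0378 and 0.281, adjusted p = 0.154 and 0.586), and r = -0.04 without D11 and D53. The part of either list in the Gpx1 difference was not tested.

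Gpx3, the secreted peroxidase of plasma and the most abundant of the 10 per length (11:54902453-54910377, plus strand), varied within every group by more than between groups. The Low Control mice had 365 (D8), 345 (D9), 273 (D11) and 195 CPM (D98), and Low Run mice had 440.2 (D57), 209 (D61), 200.5 (D66) and 309.8 CPM (D68). In High Control it was at 351 (D23), 359.7 (D25) and 278 CPM (D67), and High Run mice had 194 (D49), 354 (D52), 489 (D53) and 417 CPM (D62). The log2 difference was -0.02 (SE 0.29, 95% interval -0.64 to 0.59, adjusted p = 0.979) in Low mice and 0.14 (SE 0.31, 95% interval -0.52 to 0.80, adjusted p = 0.978) in High mice. Changes of either sign between these bounds were thus compatible with the data. Without D53 the difference in High mice was -0.03. Over the mice Gpx3 went with 12 genes of NADPH supply (r = 0.78, rho = 0.82, permutation p = 6.1e-04 and 2.9e-04, adjusted p = 0.0126 and 0.0127), with r = 0.65 without D49 and D66.

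The genes whose log2 CPM over the 15 mice was most like that of each of the 10 were, with Pearson's r, Psma4 (0.98) for Sod1, Cs (0.96) for Sod2, Fbln7 (0.95) for Sod3, Psmd11 (0.96) for Cat, Ly6a (0.91) for Gpx1, Cnn3 (0.90) for Gpx3, Suclg1 (0.98) for Prdx3, Pmvk (0.96) for Prdx5, Rpl12 (0.92) for Nox4 and Laptm5 (0.91) for Cybb. Psma4 and Psmd11 encode proteasome subunits, Cs and Suclg1 enzymes of the citric acid cycle, and Laptm5 a lysosomal protein of leukocytes. These were picked as the highest of 16920 genes and carry no test.

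The rest of the peroxide pathway gave no calls at a false discovery rate of 0.1 either. Beside the counts below, 51.9% of all genes tested were above 0 in Low mice and 57.2% in High mice. At an unadjusted p under 0.05 in either direction it was 13.4% and 5.18%. The list of 11 other peroxide-removing enzymes also held Ccs, the copper chaperone of SOD1, which itself removes no peroxide. Of its 8 genes tested, 7 had a positive log2 fold change in Low Run against Low Control, 3 of them at an unadjusted p under 0.05, with a median of 0.29. Ccs was the gene below 0 (log2 -0.05). Without D9 all 8 were above 0, none of them at an unadjusted p under 0.05, with a median of 0.19. With all mice the 3 were Prdx2, of the cytosol (log2 0.32, SE 0.14, adjusted p = 0.358, groups not overlapping), Prdx4, of the endoplasmic reticulum (log2 0.57, SE 0.24, adjusted p = 0.359), and Gpx4, which reduces lipid peroxides (log2 0.26, SE 0.12, adjusted p = 0.367). In High mice 6 of the 8 were above 0 with a median of 0.09, and none had an unadjusted p under 0.05. Without D53, 3 of the 8 were above 0 with a median of -0.04. Of the 15 thioredoxin and glutathione genes, Txn2, the thioredoxin that serves Prdx3 and Prdx5 in mitochondria, was higher (log2 0.27, SE 0.12, adjusted p = 0.367) and Txnrd1 lower at an unadjusted p under 0.05 in Low mice, and none was in High mice. Without D9 neither passed, with Txn2 at 0.22 and Txnrd1 at -0.32. Glrx in Low mice (log2 0.47, SE 0.22, adjusted p = 0.372) and Txn1 in High mice (log2 0.37, SE 0.21, adjusted p = 0.956) were higher in every run mouse than in every control mouse, and Glrx2 in High mice was lower in every run mouse (log2 -0.19, SE 0.13, adjusted p = 0.956). Of all genes tested, 3.35% were higher without overlap in Low mice, and 3.47% were higher and 3.6% lower in High mice.

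Among the 12 genes that supply NADPH, the reductant of both the oxidases and the peroxidases, Aldh1l1 (log2 -0.43, SE 0.17, adjusted p = 0.358) and H6pd (log2 -0.56, SE 0.23, adjusted p = 0.358) were lower in Low Run at an unadjusted p under 0.05. Without D9 neither passed, with Aldh1l1 at -0.38 and H6pd at -0.35. Nnt, the mitochondrial transhydrogenase, had only 9 to 47 reads per mouse, so counting error weighs more on it. It differed by -0.66 in Low mice (SE 0.36, adjusted p = 0.404). In High mice the malic enzyme Me1 alone passed (log2 -0.36, SE 0.17, adjusted p = 0.956), lower in every run mouse, while Pgd of the pentose phosphate pathway was higher in every run mouse (log2 0.23, SE 0.18, adjusted p = 0.958). Of 14 other sources of hydrogen peroxide tested out of 18 listed, the lysyl oxidase Lox was lower in Low Run (log2 -1.11, SE 0.46, adjusted p = 0.358) and the outer mitochondrial membrane enzyme Maob was lower in High Run (log2 -0.38, SE 0.16, adjusted p = 0.956), with Maoa at -0.23 (SE 0.14, adjusted p = 0.956), both monoamine oxidases being lower in every High Run than in every High Control mouse. Both gaps were narrow: Maob was at 41.98 CPM in High Run D52 and 42.08 in High Control D67, and Maoa at 15.1 in D49 and 15.7 in D67. Without D9 Lox was at -0.41, and without D62 Maob was at -0.32, neither at an unadjusted p under 0.05. Of 15 other oxidase homologues and partners listed, 11 were tested, and Rac1, the most abundant per length, is a general GTPase. Duoxa1, a maturation factor of the dual oxidases, was higher in High Run (2.22-fold, SE 0.49 on the log2 scale, adjusted p = 0.956). It had only 6 to 56 reads per mouse. High Run D52 was at 1.95 CPM, and the other High Run mice, at 0.67 to 0.82 CPM, overlapped High Control D25 at 0.70 CPM.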

How the data were processed

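Polyadenylated RNA from the gastrocnemius of 15 mice was sequenced. Alignment was by STAR (2.7.9a, mm10). The authors deposited counts made with featureCounts on Ensembl gene models, whole numbers of uniquely aligned proper pairs on the gene's strand, neither normalized nor including mitochondrial genes. The Subread version was 2.0.3 in the submitters' processing notes. Their table of transformed values of the same counts was not used here.

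Counts were tested with edgeR 4.0.16 (R 4.3.3): filterByExpr by group, TMM scaling, 1 mean per group over all 15 mice, glmQLFit and glmQLFTest, with Benjamini-Hochberg adjustment over 16920 genes. CPM used TMM-scaled library sizes. Exact two-sided permutation tests and correlations used log2(CPM + 0.5), with 100000 permutations for correlations. For the interaction the run labels were permuted within each frailty group, which tests for no run effect in either group. The script was tested on simulated data. The alternatives were DESeq2 1.42.0, limma 3.58.1 voom, RLE scaling, other filters, only the groups compared, and leaving out mice. The labels carry no batch and nothing says that any mice shared a litter. Total counts were 19395125 or more, and p-values weigh a difference against the spread between mice. Gene positions came from GENCODE M21 on GRCm38, which matched 55190 of 55450 genes, and promoters from RefSeq on GRCm38.p6.

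All 10 genes were described. A gene of another pathway list was named with values only if among the 3 of its list with the smallest unadjusted p in either run comparison, or the most abundant per length. Ncf4 was named after its values were seen, and 1 gene was left out of the oxidase list and of every count of it. The genes and lists were chosen with earlier results of these data known.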

Additional observations from a re-analysis of the deposited data

Results flagged for a closer look

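In groups of 4 mice, 1 mouse stood far from the other 3 in 4 of the 30 group and gene pairs examined, by Dixon's 95% criterion for the gap to the next mouse over the range of the group, which chance passes in about 1 in 20. Low Control D9 had 181 CPM of Sod1. Low Run D57 had 221 CPM of Sod2. High Run D53 had 108 CPM of Gpx1, and High Run D62 had 14.1 CPM of Nox4. Without D53 the Gpx1 difference in High mice was 0.17, and without D62 the Nox4 difference in High mice was 0.42, on the log2 scale. Without D9 the Sod1 difference in Low mice was 0.14, and without D57 the Sod2 difference there was 0.06.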

How the results depend on the processing

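Of the log2 fold changes of the 10 genes in the 5 comparisons, 742 values under the other settings kept their direction and stayed short of an adjusted p of 0.1, and 48 changed sign. None of the 10 was called under any setting. Counts of called genes over the whole table, 0 with the edgeR fit, were 86 in Low Run against Low Control, 19 in High Run against High Control, 4 for the interaction and 6 in High Run against Low Run without the filter on low counts, 10 and 15 in the first and second of these comparisons with DESeq2, and 45 in High Run against High Control with limma voom and sample quality weights. At an unadjusted p under 0.05 DESeq2 gave 2643 and 1144 genes and limma voom 1385 and 2300 in the first and second comparisons.

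Signs changed as follows, on the log2 scale. With at least 10 counts in every mouse Sod3 was at 0.0035 in High Run against High Control, and with DESeq2 Prdx5 was at -0.0018 there. With limma voom and quality weights Sod1 was at 0.017 in Low Run against Low Control, and Sod3, Gpx3 and Prdx5 were at 0.13, -0.053 and -0.063 in High Run against High Control. Under the same setting Sod2 was at 0.0082 for the interaction, and Sod1, Sod2 and Sod3 were at -0.025, 0.054 and 0.081 in High Run against Low Run. Without D9 and D62, a setting chosen after seeing the data, Sod1 and Gpx3 were at 0.14 and 0.050 in Low Run against Low Control, and Sod3 and Cat at 0.26 and -0.049 in High Run against High Control. Without those mice Sod2 and Cat were at 0.027 and -0.017 for the interaction, and Sod1, Sod2 and Sod3 at -0.012, 0.060 and 0.17 in High Run against Low Run. The cause of these changes was not tested, beyond the mice left out.

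With 1 mouse left out at a time, the lowest and highest values of the differences that changed sign were as follows. In Low Run against Low Control they were -0.30 to 0.14 for Sod1, -0.12 to 0.062 for Sod2 and -0.30 to 0.11 for Gpx3. In High Run against High Control they were -0.22 to 0.26 for Sod3, -0.049 to 0.24 for Cat, -0.035 to 0.34 for Gpx3 and -0.10 to 0.082 for Prdx5. For the interaction they were -0.056 to 0.29 for Gpx1, -0.013 to 0.44 for Gpx3 and -0.094 to 0.66 for Cybb. Between the control groups they were -0.23 to 0.030 for Gpx1. In High Run against Low Run they were -0.018 to 0.24 for Sod1, -0.17 to 0.060 for Sod2, -0.32 to 0.17 for Sod3, -0.17 to 0.15 for Gpx1, -0.19 to 0.046 for Prdx5 and -0.42 to 0.11 for Cybb.

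No paired analysis was possible because every mouse has its own number and no number is shared between groups. With 3 or 4 mice a group, a 95% interval that held 0 also held differences that these data do not exclude. The oxidase genes, with 55 to 575 reads a mouse, have the widest intervals. The intervals cover the spread between mice and not the sampling of other litters or cohorts.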
